A study of Sus scrofa with 12 samples.

Results

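The genes described here serve the filling of the blastocoel, namely the water channels AQP3 and AQP11, the sodium pump subunits ATP1B1 and ATP1B3, the sodium channel subunit SCNN1A and the channel-activating protease PRSS8. They were chosen by name. Of these 6 genes, 5 had an identifier with their symbol among the 31781 Ensembl pig identifiers of the table. They are AQP3 (ENSSSCG00000040513), AQP11 (ENSSSCG00000014880), ATP1B1 (ENSSSCG00000006296), SCNN1A (ENSSSCG00000000707) and PRSS8 (ENSSSCG00000038600). ATP1B3 had none and was not analysed here, so the sodium pump is represented by 1 of its 2 listed beta subunits. All 5 genes found were among the 9411 tested, which reached 1 FPKM in 3 or more libraries.

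A blastocyst is a hollow ball whose outer epithelium, the trophectoderm, pumps fluid into a central cavity, the blastocoel. The sodium pump moves sodium across the basal membrane of these cells, water follows the salt, and aquaporins let it cross the membranes. Sodium enters the cells from outside through exchangers and, as shown in mammalian embryos, through the epithelial sodium channel ENaC. Serine proteases of the cell surface raise the activity of ENaC by cutting its subunits. A blastocyst that has been frozen or vitrified collapses and has to pump its cavity open again after warming.

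RNA came from pig (Sus scrofa) blastocysts made by parthenogenetic activation, in which an egg develops without sperm, so every group shares that origin. Fresh control embryos gave 3 libraries of the table, and the vitrified groups gave 2 (named vitrification), 3 (vitrification I) and 3 (vitrification II). Vitrified samples are cooled so fast that they set as a glass without ice. The labels do not say how the 3 vitrified groups were treated differently, nor which of them was cooled in the liquid helium that the series title names. They give blastocyst as the source of each library while the protocol describes sorted single cells, so the number of cells or embryos behind a library is not known.

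Values are FPKM, fragments relative to the length of the gene and the size of the library, and changes are differences in mean log2(FPKM + 1) with the standard error from limma. A gene was called at a Benjamini-Hochberg adjusted p under 0.05 over all genes kept. The differences understate the change of genes near 1 FPKM. Depth is unknown because no counts were given. Genes encoded in the mitochondrion held 37.6% to 43.9% of the FPKM in fresh control, 38.7% to 51.8% in the vitrification group, 43.8% to 64.3% in vitrification I and 16.9% to 22.1% in vitrification II. Over all genes tested, the median difference placed vitrification II 0.62 above fresh control, 0.46 above vitrification and 0.68 above vitrification I. It was 0.19 for vitrification against fresh control, and at -0.06 for vitrification I against fresh control and -0.26 against vitrification.

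The labelled tissue was checked against markers. The trophectoderm keratin KRT8 lay between 1097 and 18589 FPKM over all libraries, and the transcription factor GATA3 between 20.9 and 64.9. Of 14 trophectoderm markers with an identifier 12 passed the filter. CDX2 was low at 1.21 to 4.99 FPKM, and ELF5 and HAND1 did not pass, reaching at most 0.382 and 0.170. Of 8 cumulus and granulosa cell markers with an identifier, 0 passed the filter, and HAS2 and PTX3 were listed at 0 in every library. STAR, which did not pass, reached 3.89 FPKM in a vitrification library. Of 8 oocyte genes 1 passed, GDF9, at 3.29 to 8.40 FPKM over all libraries, while ZP3 and NLRP5 were listed at 0 in every library. MOS, BMP15 and ZP4 did not pass but reached 3.84, 2.97 and 1.98 FPKM, each in vitrification II. Summed oocyte genes ran from 4.06 to 17.2 in vitrification II, beside 6.51 to 7.67 in fresh control. Of 7 leukocyte and erythroid genes LYZ and HBB passed, reaching at most 11.95 and 10.4 FPKM, and the leukocyte marker PTPRC was listed at 0 throughout. Summed FPKM of the 14 trophectoderm markers with an identifier ran from 11259.6 to 17177 in fresh control, 7575 to 18741 in the vitrification group, 3087 to 6461 in vitrification I, with 15059 to 23505 in vitrification II. Summed epiblast markers ran from 90.9 to 167 in fresh control, 46.6 to 90.4 in the vitrification group, 72.4 to 277 in vitrification I, with 205 to 297 in vitrification II. DPPA5 was the largest part of the epiblast sums, with means of 112, 39.9, 135 and 179 FPKM in the same order of groups. POU5F1 and SOX2 had no identifier with their symbol. Summed hypoblast markers ran from 12.4 to 22.5 in fresh control, 24.2 to 59.4 in the vitrification group, 21.4 to 33.1 in vitrification I, with 28.1 to 46.1 in vitrification II, and FOXA2 was listed at 0 in every library.

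AQP3, an aquaporin that carries glycerol as well as water, was low in vitrification I alone of the 4 groups. By FPKM it was the main aquaporin of these libraries among those with an identifier. Its FPKM was 133, 799 and 406 in the fresh control libraries, 359.9 and 425 in the vitrification group, 37.4, 62.6 and 56.8 in vitrification I, with 368, 306 and 278 in vitrification II. The highest library of vitrification I thus lay below the lowest library of each other group. Fresh control was the most scattered group, with its replicate 1 far below the other two, and its range covered both vitrification and vitrification II. Group means were 446 ± 335 (SD, n = 3), 392 ± 45.9 (SD, n = 2), 52.3 ± 13.2 (SD, n = 3) and 317 ± 46.3 (SD, n = 3) in the same order. AQP3 ranked between 96 and 437 by FPKM within the libraries outside vitrification I and between 654 and 1048 within it.

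**Figure D1:**
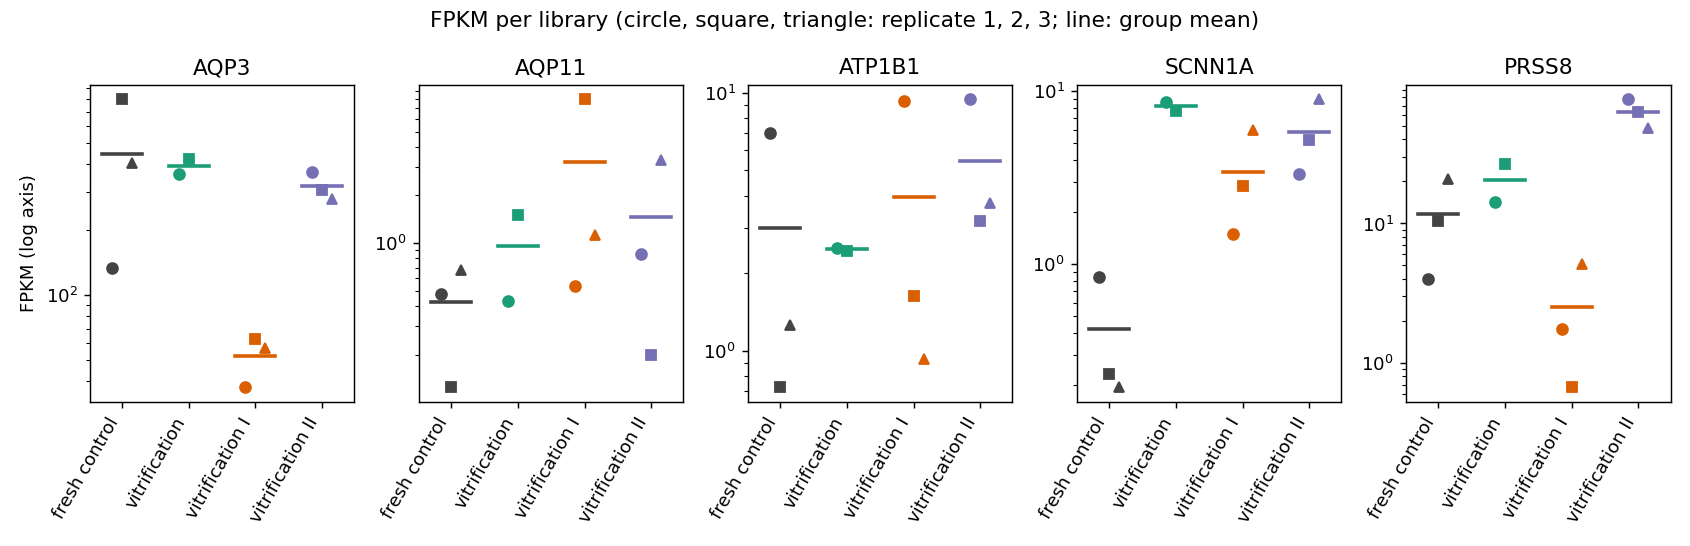
FPKM of the 5 genes in each of the 11 libraries, on a log axis, by group, with the group mean as a line. AQP3 in vitrification I (37.4 to 62.6) lies below every other library, SCNN1A in fresh control (0.194 to 0.839) lies below every vitrified library, and PRSS8 in vitrification II (48.7 to 77.6) lies above every other library.

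In vitrification I, AQP3 fell by 2.76 ± 0.50 log2 against fresh control, 6.77-fold on the FPKM + 1 scale (limma adjusted p = 0.00233). It was called under all 18 alternatives tried, with an adjusted p of at most 0.0363. Against vitrification it fell by 2.91 ± 0.55 (limma adjusted p = 0.0123). That second call ended without vitrification replicate 1 (adjusted p = 0.0857), vitrification replicate 2 (0.0831) or vitrification I replicate 1 (0.0518). Vitrification II lay above vitrification I by 2.60 ± 0.50 (limma adjusted p = 0.00113), also called under all 18 alternatives, with an adjusted p of at most 0.0325.

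The other 3 pairs of groups were not called for AQP3. Vitrification differed from fresh control by 0.15 (95% interval -1.03 to 1.33) and vitrification II by -0.16 (-1.21 to 0.90), so changes of up to about 1 log2 either way were not detectable with these libraries. Ordered by mean FPKM, fresh control, vitrification and vitrification II were neighbours that did not differ beyond their spread, and the step down to vitrification I was called. Part of the trophectoderm marker list was also lower in vitrification I, and part was not called or was higher. Of the 12 trophectoderm markers that passed the filter, 6 fell and 1 rose in vitrification I against fresh control, among them KRT8 and TEAD4 lower and TFAP2A higher, beside 9.77% lower and 8.85% higher of all genes tested. Their part in the AQP3 result was not tested, and in bulk libraries fewer cells of a type and less RNA per cell cannot be told apart.

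AQP11, an aquaporin of intracellular membranes such as the endoplasmic reticulum, was scarce. Its FPKM was 0.480, 0.124 and 0.676 in fresh control, 0.435 and 1.49 in the vitrification group, 0.538, 7.96 and 1.13 in vitrification I, and 0.853, 0.198 and 3.30 in vitrification II. Only 4 of the 11 libraries reached 1 FPKM, and the groups overlapped in every comparison. A single library, vitrification I replicate 2, held the highest value. AQP11 was called in none of the 6 comparisons by limma, where the unadjusted p was lowest at 0.0674 for vitrification I against fresh control (1.13, 95% interval -0.09 to 2.35).

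AQP3 made up 86.5% to 99.9% of the FPKM summed over the 10 aquaporins with an identifier. FPKM is scaled to gene length, so these levels can be set side by side. The lowest share came from vitrification I replicate 2, the library with low AQP3 and the highest AQP11. AQP7 was on the list too but was not measured here. Among the 8 other aquaporins with an identifier, AQP4 was listed at 0 in every library and only AQP9 passed the filter. AQP9, which like AQP3 carries glycerol, had 0.684 ± 0.837 FPKM in fresh control (SD, n = 3), 2.19 ± 2.40 in the vitrification group (n = 2), 0.617 ± 0.864 in vitrification I (n = 3) and 7.02 ± 3.93 in vitrification II (n = 3). It rose 4.61-fold on the FPKM + 1 scale in vitrification II against fresh control (limma adjusted p = 0.0101) and lay 2.28 ± 0.54 log2 above vitrification I (0.00470). The first call ended without fresh control replicate 2 (adjusted p = 0.0501), and both ended after quantile normalization (0.108 and 0.0725), after median centring (0.122 and 0.0553) and with no filter (0.0856 and 0.0559).

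ATP1B1 encodes a beta subunit of the sodium pump, which folds the catalytic alpha subunit and brings it to the membrane. Its FPKM was 6.98, 0.723 and 1.26 in fresh control, 2.51 and 2.45 in the vitrification group, 9.32, 1.63 and 0.929 in vitrification I, and 9.43, 3.20 and 3.75 in vitrification II. In each of the 4 groups the library numbered 1 had the highest value, and within fresh control, vitrification I and vitrification II it stood well above the rest. The labels do not say what a number marks. With the number as a replicate block, ATP1B1 was still not called in any comparison. The lowest limma adjusted p was then 0.152, for vitrification II against fresh control. The effect of the number itself was not tested.

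ATP1B1 was called in 0 of the 6 comparisons by limma, and 0 of the 6 had an unadjusted p under 0.05. The largest difference was 0.91 ± 0.64 for vitrification II against fresh control (95% interval -0.44 to 2.27, limma adjusted p = 0.299). The mean was 2.99 ± 3.46 FPKM in fresh control and 5.46 ± 3.45 in vitrification II (SD, n = 3 each), so the spread within groups was as large as the distance between them. The interval leaves room for a rise of more than 2 log2 in vitrification II.

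Of the pump's other listed genes, the regulator FXYD3 is described here. It had 3.42 ± 2.75 FPKM in fresh control and 0.641 ± 0.662 in vitrification I, against 7.66 ± 5.49 in vitrification II (SD, n = 3 each). FXYD3, a small membrane protein that modulates the pump, lay 2.25 ± 0.63 higher in vitrification II than in vitrification I (limma adjusted p = 0.0114). Its call ended without vitrification II replicate 1 (0.0571), with no filter (0.100), and after quantile normalization (0.0879), median centring (0.0818) and rescaling to the non-mitochondrial total (0.0507). The beta subunit ATP1B2 was listed at 0 in every library.

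SCNN1A encodes the alpha subunit of ENaC, which the channel needs to conduct, and was the only one of the 5 genes called higher than in fresh control in all 3 vitrified groups. Its FPKM was 0.839, 0.231 and 0.194 in fresh control, 8.65 and 7.68 in the vitrification group, 1.5, 2.82 and 5.93 in vitrification I, and 3.33, 5.21 and 8.96 in vitrification II. Every vitrified library lay above every fresh one. Because all fresh libraries were under 1 FPKM, SCNN1A passed the filter only through the vitrified groups, as did AQP11.

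SCNN1A rose by 2.72 ± 0.48 log2 in vitrification (limma adjusted p = 0.0195), by 1.54 ± 0.43 in vitrification I (0.0225) and by 2.21 ± 0.43 in vitrification II (0.00284), each against the same fresh control libraries. In a fit with no filter, which does not depend on that choice, the adjusted p was 0.0235, 0.0937 and 0.0230 in the same order, so the vitrification I call ended. With a pseudocount of 0.1 in place of 1 the same differences were 4.19, 2.76 and 3.60, all called. The vitrification call ended without fresh control replicate 2 (adjusted p = 0.0920), fresh control replicate 3 (0.0686) or vitrification replicate 2 (0.215), after median centring (0.0504) and with those 2 groups alone (0.0623). The vitrification I call ended without fresh control replicate 2 (0.0831), fresh control replicate 3 (0.0872) or vitrification I replicate 3 (0.0882). The vitrification II call held without any 1 library but ended after quantile normalization (1.53, adjusted p = 0.0587) and median centring (1.33, 0.0686). Under these scalings the median difference of all genes in that comparison was -0.03 and -0.26 in place of 0.62.

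Among the vitrified groups, SCNN1A was called in none of the 3 comparisons. Vitrification I lay 1.18 ± 0.48 below vitrification with no overlap of libraries (95% interval -2.20 to -0.15, limma adjusted p = 0.154). Vitrification II lay between them by mean FPKM. From low to high the means were 0.422 ± 0.362 in fresh control, 3.42 ± 2.28 in vitrification I, 5.83 ± 2.87 in vitrification II (SD, n = 3 each) and 8.17 ± 0.689 in vitrification (n = 2), and only the first step was called.

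The partner subunits of the channel did not pass the filter. SCNN1B, the beta subunit, lay between 0 and 0.175 FPKM in fresh control, 0.625 and 0.933 in the vitrification group, 0.180 and 0.942 in vitrification II, and was listed at 0 in all vitrification I libraries. SCNN1G, the gamma subunit, reached at most 1.07 FPKM, in a fresh control library. SCNN1A was thus the most abundant of the 3 channel subunits in the means of every group, though in fresh control its mean of 0.422 was close to the SCNN1G mean of 0.355.

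PRSS8 encodes prostasin, a membrane-anchored serine protease that activates ENaC, and had the widest difference between groups of the 5 genes. Its FPKM was 3.97, 10.3 and 21.0 in fresh control, 14.2 and 26.6 in the vitrification group, 1.74, 0.667 and 5.10 in vitrification I, and 77.6, 63.5 and 48.7 in vitrification II. All vitrification II libraries stood above every other library. Vitrification I was the lowest group, though its replicate 3 was higher than fresh control replicate 1. The means were 2.50 ± 2.31 in vitrification I, 11.8 ± 8.60 in fresh control, 20.4 ± 8.78 in vitrification (n = 2) and 63.2 ± 14.5 in vitrification II (SD, n = 3 where not given).

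PRSS8 was 4.38 ± 0.55 log2 higher in vitrification II than in vitrification I, 20.8-fold on the FPKM + 1 scale (limma adjusted p = 7.80e-05). That call held under all 18 alternatives, with differences from 3.58 to 5.00 and an adjusted p of at most 0.00437. Against fresh control it rose by 2.56 ± 0.55 in vitrification II (limma adjusted p = 0.00488), a call that ended after quantile normalization (1.91, adjusted p = 0.0756) and median centring (1.68, 0.0896). Against vitrification, vitrification II lay 1.62 ± 0.61 higher without overlap of libraries and without passing (limma adjusted p = 0.109), and passed in a fit on those 2 groups alone (0.0251).

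In vitrification I, PRSS8 fell by 1.83 ± 0.55 against fresh control (limma adjusted p = 0.0307) and by 2.76 ± 0.61 against vitrification (0.0198). The first call ended under 8 of 18 alternatives. These were leaving out fresh control replicate 2 (adjusted p = 0.0856), fresh control replicate 3 (0.148), vitrification I replicate 1 (0.0866) or vitrification I replicate 2 (0.0974), no filter (0.168), quantile normalization (0.0534), the non-mitochondrial total (0.0928) and 2 groups alone (0.0776). The call against vitrification ended without vitrification replicate 1 (0.0906), vitrification replicate 2 (0.160) or vitrification I replicate 1 (0.0654), with no filter (0.0657) and after median centring (0.0586). Fresh control and vitrification were neighbours that did not differ beyond their spread (0.93 ± 0.61, limma adjusted p = 0.454). Of the 12 trophectoderm markers that passed the filter, 5 were also higher and 0 lower in vitrification II than in vitrification I, and of 6 epiblast markers 3 were higher and 0 lower. These shares, 41.7% and 50.0%, stand beside 34.7% called higher of all genes. In vitrification II against fresh control, where SCNN1A and PRSS8 rose, 3 of 5 hypoblast markers (PDGFRA, FN1 and LAMA1) rose and 0 fell. The list median was 1.52 log2 beside 0.62 for all genes, and 24.6% of all genes were called higher. PDGFRA and LAMA1 were under 1 FPKM in all fresh control libraries, at most 0.584 and 0.838. Both passed the filter only through the vitrified groups, so the hypoblast count and median are descriptions. The mitochondrial share differed in the same libraries as given above. The part of the markers and of this share in the PRSS8 and SCNN1A differences was not tested.

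Relative to the median of all genes tested, SCNN1A differed from fresh control by 2.53 log2 in the vitrification group, 1.60 in vitrification I, with 1.59 in vitrification II. On the same footing PRSS8 lay 1.93 above fresh control and 3.70 above vitrification I in vitrification II. AQP3 stood at -2.70 in vitrification I against fresh control by the same measure, and 1.92 higher in vitrification II than in vitrification I.

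**Figure D2:**
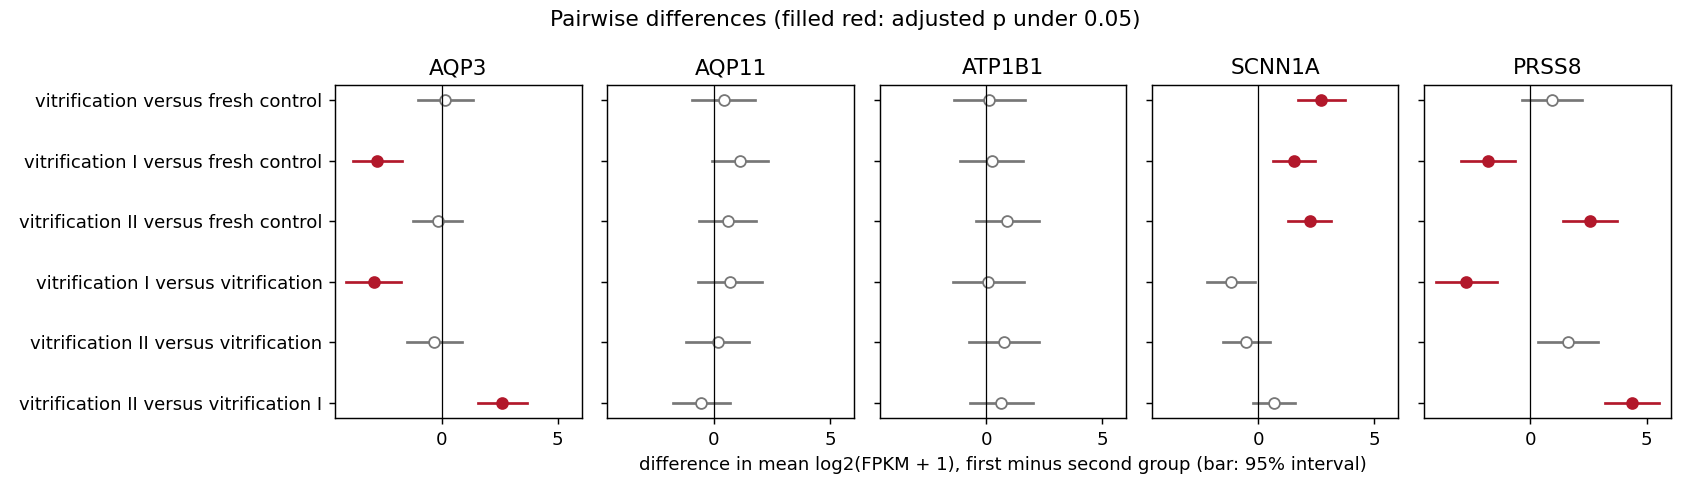
Difference in mean log2(FPKM + 1) of the 5 genes for each of the 6 pairs of groups, first group minus second, with 95% intervals from limma, filled where the adjusted p is under 0.05. AQP3 is negative where vitrification I is set against fresh control (-2.76) or vitrification (-2.91), SCNN1A is positive in all 3 comparisons with fresh control, and PRSS8 differs most between vitrification II and vitrification I (4.38), while AQP11 and ATP1B1 intervals all include 0.

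Counted over the 5 genes found, 1 was called in vitrification against fresh control (SCNN1A, higher), where 1.37% of all genes tested were called and 1.25% were called higher. Of the 5, 3 were called in vitrification I against fresh control, 1 higher and 2 lower, where 18.6% of all genes were called, 8.85% higher and 9.77% lower. In vitrification II against fresh control 2 were called, both higher, where 25.7% of all genes were called and 24.6% were called higher. In vitrification I against vitrification 2 were called, both lower, beside 5.63% of all genes, 4.42% lower. In vitrification II against vitrification 0 were called by limma and 1, PRSS8, had an unadjusted p under 0.05, beside 5.98% called of all genes. In vitrification II against vitrification I 2 were called, both higher, beside 38.4% of all genes, 34.7% higher. The moderated F test, which asks whether any group differed, called AQP3, SCNN1A and PRSS8 (adjusted p = 0.00145, 0.00201 and 0.000468) beside 42.7% of all genes. SCNN1A and AQP11 passed the filter only through vitrified libraries, so these counts describe the genes and support nothing further. Counts of 2 among 5 genes are near the background in the last pairwise comparison, and the comparisons with fresh control share its 3 libraries. The direction of the background moved with the scaling. Of all calls in vitrification II against fresh control, 95.7% were higher as reported, 57.2% after quantile normalization and 34.0% after median centring. Against vitrification I the same shares were 90.2%, 48.2% and 41.4%, with 68.9% for the non-mitochondrial total. For vitrification against fresh control they were 91.5%, 70.4% and 58.1%, and for vitrification I against vitrification 21.5%, 48.3% and 54.5%, with 34.2% for the non-mitochondrial total. For vitrification II against vitrification they were 84.4%, 37.9% and 29.4%, with 42.4% for the non-mitochondrial total. For vitrification I against fresh control the share was 47.5%, and 72.8% with the non-mitochondrial total.

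The 5 genes did not follow 1 common pattern across the libraries. Over the 11 libraries, AQP3 and PRSS8 had the highest Pearson r of the 10 pairs (0.73, and 0.49 after subtracting group means). AQP3 and SCNN1A had an r of -0.05, and SCNN1A and PRSS8 one of 0.34. After subtracting group means AQP3 and ATP1B1 had an r of -0.71. These values describe 11 libraries that share group, scaling and unknown depth. The ratio of AQP3 to PRSS8 within a library, which does not depend on the scaling between libraries, lay between 4.75 and 5.71 in vitrification II and between 11.1 and 93.8 in the other 3 groups. The ratio does not say which of the genes changed. As reported FPKM, AQP3 in vitrification II lay within the range of fresh control and PRSS8 lay above it, which depends on the scaling. After median centring the differences in vitrification II against fresh control were -1.03 for AQP3 and 1.68 for PRSS8. Neither was called (limma adjusted p = 0.249 and 0.0896).

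The listed proteases and inhibitors that act with PRSS8 were also measured. Of 14 listed genes of this group, 9 passed the filter. In vitrification II against fresh control 3 rose and 0 fell, and against vitrification I 4 were higher and 0 lower. These are 33.3% and 44.4% of the 9, beside 24.6% and 34.7% of all genes called higher. SPINT1, an inhibitor of membrane serine proteases that include matriptase, had 55.7 ± 20.6 FPKM in fresh control, 62.7 ± 4.25 in the vitrification group, 32.8 ± 20.7 in vitrification I, with 238 ± 34.9 in vitrification II (SD; n = 3, 2, 3 and 3). It rose by 2.14 ± 0.48 log2 against fresh control (limma adjusted p = 0.00616), a call that ended after median centring (0.134), and lay 3.06 ± 0.48 above vitrification I (0.000307), a call kept under all 18 alternatives. Its call against vitrification (1.90 ± 0.53, adjusted p = 0.0485) held under 5 of 18 alternatives, and ended among others without each vitrification II library, each vitrification library, or fresh control replicate 2 or 3 (0.0615 to 0.199).

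TMPRSS2, a further membrane serine protease, rose by 2.37 ± 0.41 in vitrification II against fresh control (limma adjusted p = 0.00152), from 0.740 ± 0.163 to 8.41 ± 3.77 FPKM (SD, n = 3 each). All fresh control libraries were under 1 FPKM, so TMPRSS2 passed the filter only through the vitrified groups, and with no filter the adjusted p was 0.0151. It lay 1.80 ± 0.41 above vitrification I (0.00390), a call that ended after quantile normalization (0.0620) and median centring (0.0588). SERPINE2, a secreted inhibitor of serine proteases, rose by 1.68 ± 0.42 against fresh control (0.0105), ending after quantile normalization (0.0805) and median centring (0.146), and lay 1.76 ± 0.42 above vitrification I (0.00451), ending with the non-mitochondrial total (0.0515) and median centring (0.0544). ST14, which encodes matriptase, was 2.83-fold higher in vitrification II than in vitrification I on the FPKM + 1 scale (0.0165). That call ended without vitrification I replicate 1 (0.0741) or vitrification II replicate 1 (0.0929), with no filter (0.0767), and under quantile normalization (0.271), the non-mitochondrial total (0.193) and median centring (0.248). SPINT2, a related inhibitor, stood at 92.7 ± 44.2, 113 ± 2.92, 94.1 ± 30.3 and 135 ± 37.7 FPKM, in the order fresh control, vitrification, I and II, and was called in none of the 6 comparisons. WNK1, a kinase that regulates ion transporters, had 0.283 to 0.438 FPKM in fresh control and passed the filter only through the vitrified groups. It rose by 1.21 ± 0.34 in vitrification I against fresh control (0.0229), ending without fresh control replicate 2 (0.0839), fresh control replicate 3 (0.0667) or vitrification I replicate 1 (0.0906) and with no filter (0.0722).

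Among 17 listed symbols of sodium-coupled exchangers, cotransporters and their scaffolds, 7 passed the filter. The list holds SLC9A3R1 and SLC9A3R2, which are earlier symbols of NHERF1 and NHERF2, so it has fewer genes than symbols. NHERF1, a scaffold that binds exchangers and channels beneath the apical membrane, was low in vitrification I as AQP3 was. It had 296 ± 155 FPKM in fresh control, 267 ± 95.5 in the vitrification group, 55.3 ± 19.8 in vitrification I, with 397 ± 42.3 in vitrification II (SD; n = 3, 2, 3 and 3). It fell by 2.27 ± 0.44 log2 in vitrification I against fresh control (limma adjusted p = 0.00367) and lay 2.88 ± 0.44 higher in vitrification II than in vitrification I (0.000292), both called under all 18 alternatives. Its fall against vitrification (-2.26 ± 0.50, adjusted p = 0.0196) ended without vitrification replicate 1 (0.143), vitrification replicate 2 (0.0638) or vitrification I replicate 1 (0.0775), with no filter (0.0541) and after median centring (0.0684).

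SLC12A4, a potassium-chloride cotransporter of volume regulation, rose by 1.94 ± 0.36 in vitrification II against fresh control (limma adjusted p = 0.00220), ending after quantile normalization (0.128) and median centring (0.0947). It lay 2.18 ± 0.36 above vitrification I (0.000452) under all 18 alternatives. Its fall in vitrification I against vitrification (-1.79 ± 0.40, 0.0212) ended without vitrification replicate 1 (0.119), vitrification replicate 2 (0.0937) or vitrification I replicate 1 (0.0748), with 2 groups alone (0.0934), the non-mitochondrial total (0.0532) and median centring (0.0686). The sodium bicarbonate cotransporter SLC4A4 lay 2.08 ± 0.36 higher in vitrification II than in vitrification I (0.000565), under all 18 alternatives. Its call against fresh control (1.13 ± 0.36, 0.0319) held under 8 of 18, and ended without fresh control replicate 2 or 3 or any 1 vitrification II library (0.0511 to 0.116). The exchanger SLC9A8 was higher in vitrification II than in fresh control (1.01 ± 0.30, 0.0255, kept under 9 of 18) and than in vitrification I (1.21 ± 0.30, 0.00621, kept under 15 of 18). SLC9A8 was under 1 FPKM in all fresh control and vitrification I libraries, at most 0.686 and 0.740, and passed the filter only through the other 2 groups. With no filter the first of these calls ended (0.0619) and the second held (0.0219). The first also ended without fresh control replicate 2 or 3 or vitrification II replicate 1 or 3 (0.0603 to 0.0922). The apical exchanger SLC9A3 was listed at 0 in every library.

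Of 14 listed chloride and potassium channels, 7 passed the filter. LRRC8D, a subunit of the volume-regulated anion channel, had 0.0509 to 0.405 FPKM in fresh control, 0.716 to 1.35 in the vitrification group, 5.61 to 12.6 in vitrification I and 2.46 to 4.88 in vitrification II, so that no 2 groups overlapped. As with SCNN1A, its fresh control libraries were all under 1 FPKM, so it passed the filter only through the vitrified groups. It rose by 2.87 ± 0.38 log2 in vitrification I against fresh control (limma adjusted p = 0.000422, and 0.00893 with no filter) and by 1.95 ± 0.38 in vitrification II (0.00274, and 0.0171 with no filter, ending after median centring at 0.0669). It lay 2.07 ± 0.42 higher in vitrification I than in vitrification (0.0162), ending without vitrification replicate 1 (0.115), vitrification replicate 2 (0.0569) or vitrification I replicate 1 (0.0540) and with 2 groups alone (0.0670).

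CLIC4, an intracellular chloride channel protein, rose from 46.0 ± 11.03 FPKM in fresh control to 156 ± 36.2 in vitrification I, with 140 ± 21.3 in vitrification II (SD, n = 3 each). The differences were 1.74 ± 0.34 (limma adjusted p = 0.00395, under all 18 alternatives) and 1.60 ± 0.34 (0.00500, ending after median centring at 0.222). Its calls against vitrification, 1.54 ± 0.38 for vitrification I (0.0329) and 1.40 ± 0.38 for vitrification II (0.0451), held under 12 and 5 of 18 and ended without either vitrification library (0.0906 to 0.214). The first also ended without fresh control replicate 3 (0.0519) or vitrification I replicate 1 (0.109). The second also ended without fresh control replicate 2 or 3, vitrification I replicate 1 or any 1 vitrification II library (0.0545 to 0.115). CLCN3, a chloride-proton exchanger of endosomes, rose by 2.30 ± 0.52 in vitrification II against fresh control (0.00664), ending with no filter (0.0543), quantile normalization (0.135) and median centring (0.108). CFTR, the chloride channel of fluid-secreting epithelia, lay between 0 and 1.68 FPKM and was called in none of the 6 comparisons.

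**Figure D3:**
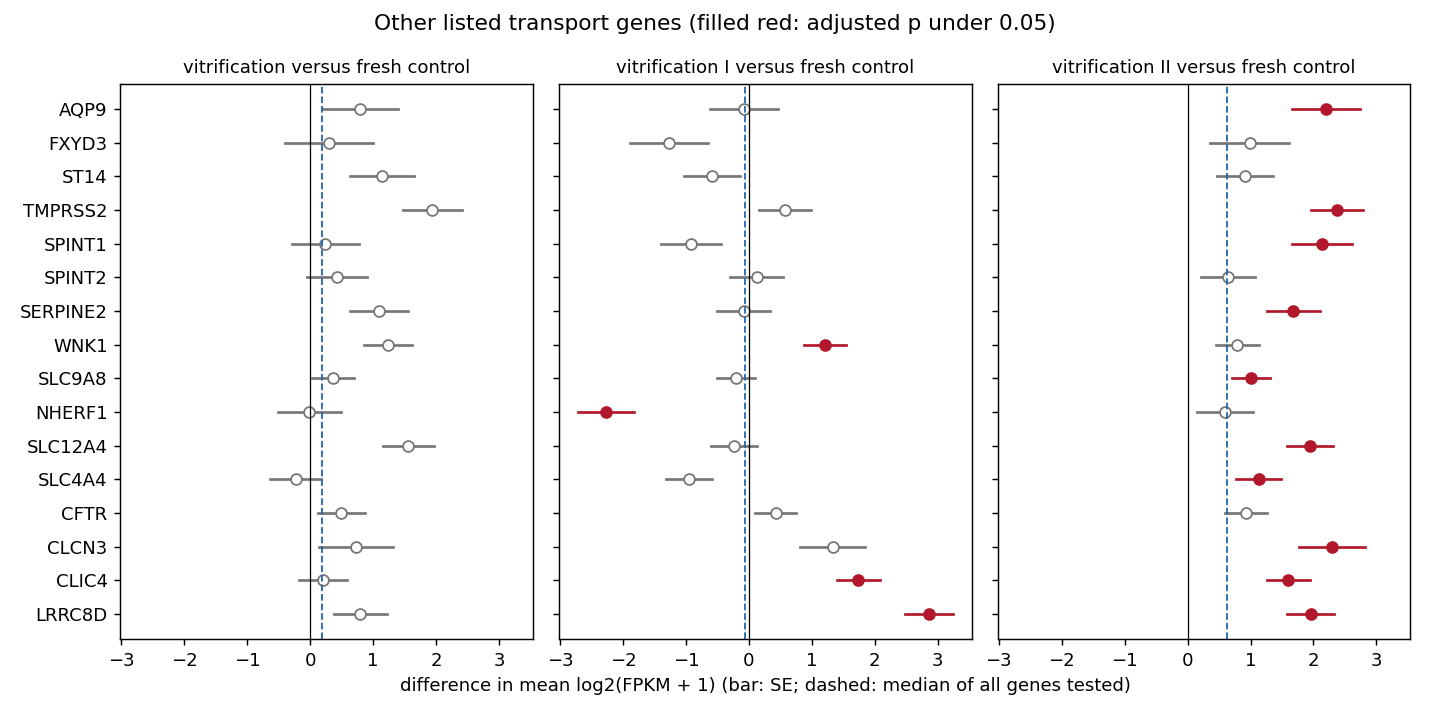
Difference in mean log2(FPKM + 1) from fresh control, with SE, for 16 of the other listed transport genes, those given in the text, in the 3 vitrified groups, filled where called, with the median of all genes tested as a dashed line. No gene is filled for vitrification, 4 are for vitrification I (NHERF1 on the negative side), and 10 are for vitrification II, all positive.

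Over all 70 other listed transport symbols, the earlier symbols of NHERF1 and NHERF2 included, 58 had an identifier and 26 passed the filter. In vitrification against fresh control limma called 0 of the 26 and 9 had an unadjusted p under 0.05, in vitrification I 4 rose and 1 fell, and in vitrification II 11 rose and 0 fell. These are 19.2% and 42.3% of the 26 in either direction, beside 18.6% and 25.7% of all genes tested. Without 1 library the count for vitrification I was 3 when fresh control replicate 2, fresh control replicate 3 or vitrification I replicate 1 was left out, and the count for vitrification II was 7 without fresh control replicate 2. The count of 0 for vitrification became 1 without vitrification replicate 1 or vitrification I replicate 1, and it was 2 when vitrification I replicate 3 was left out. With no filter the 3 counts were 1, 3 and 7. Several of the 26 passed the filter only through vitrified groups, so the counts and medians are descriptions. The median of the 26 was 0.68, 0.22 and 0.96 log2 in these comparisons, beside 0.19, -0.06 and 0.62 for all genes tested. Vitrification II against vitrification I gave 10 higher and 0 lower with a median of 0.69, beside 0.68 for all genes, and the share called, 38.5%, was that of all genes to within 0.1 percentage points. The 11 calls in vitrification II became 4 after quantile normalization and 1 after median centring.

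The genes most like each of the 5 were found by Pearson r of log2(FPKM + 1) over the 11 libraries. For AQP3 they were PLA2G15, the lysosomal protease CTSD and the cytokine receptor LTBR (0.97, 0.96 and 0.96). For SCNN1A they included ITM2C and C1orf115 (0.96 and 0.94), and for PRSS8 they were CCDC86, TEDC2 and NECAP2 (0.95, 0.95 and 0.94). AQP11 was most like LY75, TMEM170B and RAB4A (0.89, 0.88 and 0.85), and ATP1B1 most like PARD6G, ORC3 and NDUFAF7 (0.87, 0.87 and 0.84). Each is the highest over all genes kept, and carries no test.

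**Figure D4:**
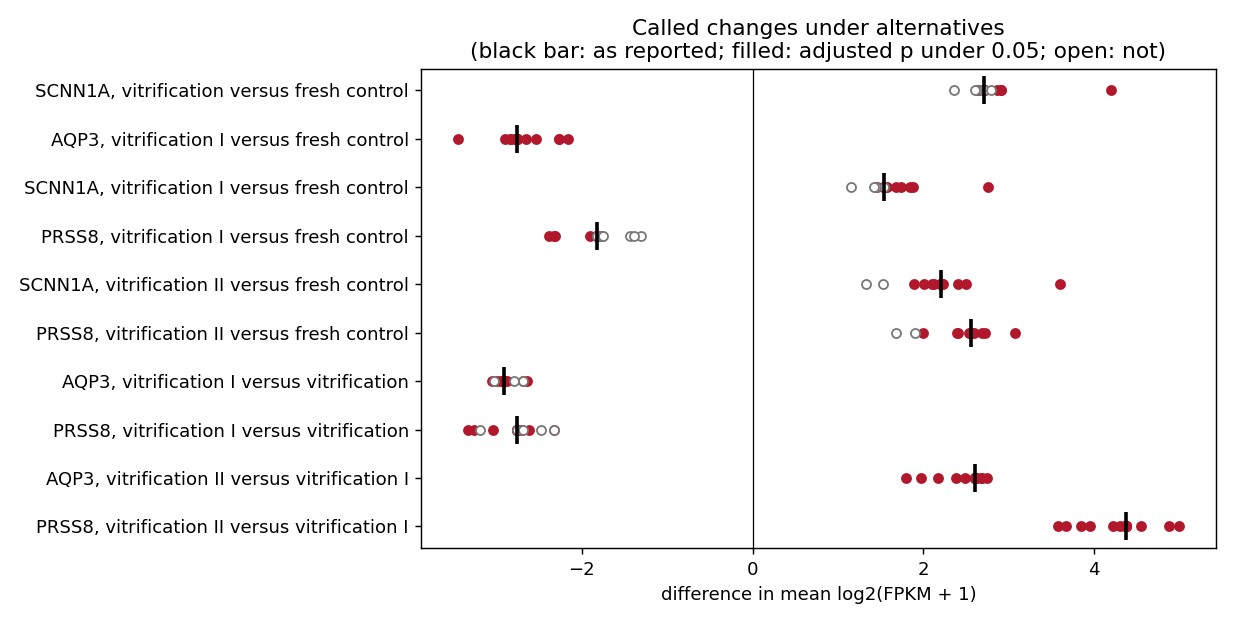
The 10 called differences of AQP3, SCNN1A and PRSS8 as reported (black bar) and under 18 alternatives each (points, filled where the adjusted p was under 0.05), in mean log2(FPKM + 1). All points stay on the side of 0 of the reported value, and AQP3 in vitrification I against fresh control and both differences between vitrification II and vitrification I are filled throughout.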

How the data were processed

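Libraries were made with Smart-Seq2, per the labels' protocols. The deposited table holds FPKM values made by the authors, 1 per gene and library. Cufflinks 2.2.1, TopHat2 2.0.13, DESeq2 and FastQC appear in the submitters' processing notes with no role stated, and the genome build is not given in the sources used here. The table had columns for 11 of 12 samples. The 3rd vitrification library had none and was not analysed here. Symbols came from a table of Ensembl identifiers, which named 8158 of the 9411 genes kept (86.7%).

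Values were analysed as log2(FPKM + 1) for genes with at least 1 FPKM in at least 3 libraries, without rescaling. With limma 3.58.1 (R 4.3.3), the 11 libraries were fitted together with a mean for each of the 4 groups (moderated test with a mean-dependent prior, two-sided, Benjamini-Hochberg adjustment over all genes kept). The fit was tested on simulated data. Nothing states that replicates are separate embryos or cultures, so p-values reflect only the scatter among libraries, possibly technical. Low values showed no common step between libraries, so reads could not be recovered. The members, gene lists and tests were chosen with earlier results of these data known. Genes named by rule are the 6 members, 10 fixed transport genes, every other listed transport gene called in any comparison and the 3 genes most like each member. Some of these are not reported here, though counts over a list include them. The planned ratio of ATP1B1 to ATP1B3 was not computed for want of an ATP1B3 identifier. The alternatives were another pseudocount, no filter, 3 other scalings, 2 groups alone, a replicate block and each library left out in turn. No sequence table was used.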

Additional observations from a re-analysis of the deposited data

How the results depend on the processing

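Each of the 10 called differences of AQP3, SCNN1A and PRSS8 kept its direction under its 18 alternatives. Of these 180 values 151 stayed called and 29 did not. Of 360 values for the 20 differences not called, 1 was called. With no filter, which adds genes to the adjustment, the number of the 5 genes called was 1 for vitrification I against fresh control (3 as reported) and 1 against vitrification (2). For vitrification II against fresh control it was 0 after quantile normalization and 0 after median centring (2). Median centring gave 0 for vitrification against fresh control (1) and 1 for vitrification I against vitrification (2). With 2 groups alone it was 0 for vitrification against fresh control and 1 for vitrification II against vitrification (0). Leaving out 1 library gave 0 to 1 for vitrification against fresh control, 1 to 3 for vitrification I against fresh control and 0 to 2 for vitrification I against vitrification. Where 1 vitrification library was left out, the other was assumed to vary like the other groups. The other causes of change were not tested.

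Differences that were not called changed sign 23 times, over 11 differences, none of them called either way. With a pseudocount of 0.1, ATP1B1 in vitrification I against vitrification was -0.011. After quantile normalization ATP1B1 was -0.23 in vitrification against fresh control and -0.094 in vitrification II against vitrification I, and SCNN1A in the latter was -0.14. Median centring gave -0.20 for AQP3 and -0.21 for ATP1B1 in vitrification against fresh control, and -0.29 for AQP11 in vitrification II against fresh control. It gave -0.36 for AQP11 in vitrification II against vitrification, and -0.14 for ATP1B1 and -0.13 for SCNN1A in vitrification II against vitrification I. With the non-mitochondrial total AQP11 in vitrification II against vitrification was -0.049. Leaving out 1 library, AQP3 ran from -0.54 to 0.75 in vitrification and -0.85 to 0.43 in vitrification II against fresh control. ATP1B1 ran from -0.29 to 0.82 in vitrification and -0.48 to 0.92 in vitrification I against fresh control, and -0.63 to 0.58 in vitrification I against vitrification. AQP11 ran from -0.064 to 1.21 in vitrification I against vitrification, -0.34 to 0.58 in vitrification II against vitrification and -1.05 to 0.23 in vitrification II against vitrification I.

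The replicate numbers are not stated to pair libraries, and 2 of 15 same-numbered pairs had deviations from group means that correlated above 0.1 (from -0.16 to 0.14). With the number as a replicate block the 5 genes gave the same counts of calls, and ATP1B1 in vitrification against fresh control was -0.15. Total FPKM of the 11 libraries does not show depth, so the precision of low genes such as AQP11 is not known.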
